A study of Mus musculus with 2 samples.

Results

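The C/EBP genes encode transcription factors of the basic leucine zipper (bZIP) class, and 7 genes grouped with them were followed here in blood neutrophils. They are Cebpa, Cebpb, Cebpd, Cebpe, Cebpg, Cebpz and Ddit3, listed by symbol and matched through gene identifiers. All 7 have an entry among the 55450 annotated genes of the main table. The samples are total RNA from neutrophils taken from the peripheral blood of C57BL/6J mice, adult and 5 to 6 weeks old, with no treatment named. The 2 libraries are numbered as biological replicates 1 and 2 of 1 group, and both carry the same donor identifier, so their spread may be technical. The labels do not say whether animals were pooled, and the sex was not collected. With 1 group there is no contrast between conditions, and no test was possible. Levels are compared between genes, and differences are set against the spread between the 2 libraries.

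C/EBP proteins bind DNA as dimers through a basic region and a leucine zipper, and they drive granulocyte development in steps. C/EBP alpha commits progenitors to the granulocyte line, and C/EBP epsilon drives the later step at which specific granule genes are transcribed. C/EBP beta and C/EBP delta serve mature cells, emergency granulopoiesis and acute-phase responses. C/EBP gamma lacks a strong activation domain and pairs with other bZIP factors. Ddit3 encodes CHOP, a family member induced by stress of the endoplasmic reticulum that forms dimers with other C/EBP proteins. Cebpz shares the name only: its protein binds the CCAAT box and has no bZIP domain, and its yeast homolog acts in ribosome assembly.

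Of the 7 genes, 5 were detected, for which each library had to show at least 1 TPM. TPM is a count per effective length, scaled to the same total in each library. The background is 35.0% of 21951 annotated protein-coding genes detected by the same rule. The TPM total of these total RNA libraries also holds RNA other than that of nuclear protein-coding genes. With TPM rescaled to nuclear protein-coding genes, all 7 members reached 1, and the background share on that scale was not computed. The libraries held 22643269 (replicate 1) and 21468122 (replicate 2) expected counts over annotated genes. Taking 3 counts as the limit, a gene with no count lies below 0.132 and 0.140 CPM, which is the count scaled to a common library total without regard to length. That limit and the intervals below cover counting error only.

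The late factors were high and the early factors low beside them. Cebpb was at 13.8 TPM in replicate 1 and 14.9 in replicate 2, from 1804 and 1973 expected counts. Cebpd was at 10.19 and 10.02 TPM, from 3568 and 3397 counts. Cebpe was at 0.79 and 0.74 TPM, from 83 and 79 counts, and Cebpa at 0.55 and 0.68, from 132 and 164 counts. Both libraries put each late factor above each early factor, and the ranges do not overlap. The early factors were low but counted well above the limit that no count allows, at 6.73 ± 1.28 CPM for Cebpa and 3.67 ± 0.01 CPM for Cebpe (mean ± SD, n = 2).

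On the log2(TPM + 1) scale, the mean of Cebpb and Cebpd exceeded the mean of Cebpa and Cebpe by 2.95 in both libraries, with an SD of 0.0031 (n = 2). The late and the early mean were both higher in replicate 2, with SDs of 0.0297 and 0.0266. The smaller SD of the gap is thus not a measure of its precision. The pseudocount of 1 understates this gap, since the early factors lie below it. By summed TPM, the late pair stood at 24.5 ± 0.679 and the early pair at 1.38 ± 0.0566, a ratio of 17.7 ± 0.235. Cebpb exceeded Cebpe by 18.8 ± 1.91 times in TPM, and Cebpa by 23.5 ± 2.21 times. Cebpd exceeded Cebpe by 13.2 ± 0.454 times. The late pair held 46.8 ± 1.48% of the summed TPM of all 7 genes and the early pair 2.64 ± 0.119%. The split was also seen in both other tables compared, with values of 3.59 ± 0.015 in the older gene table and 3.21 ± 0.014 in the alignment-free table on the same log2 scale.

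**Figure D1:**
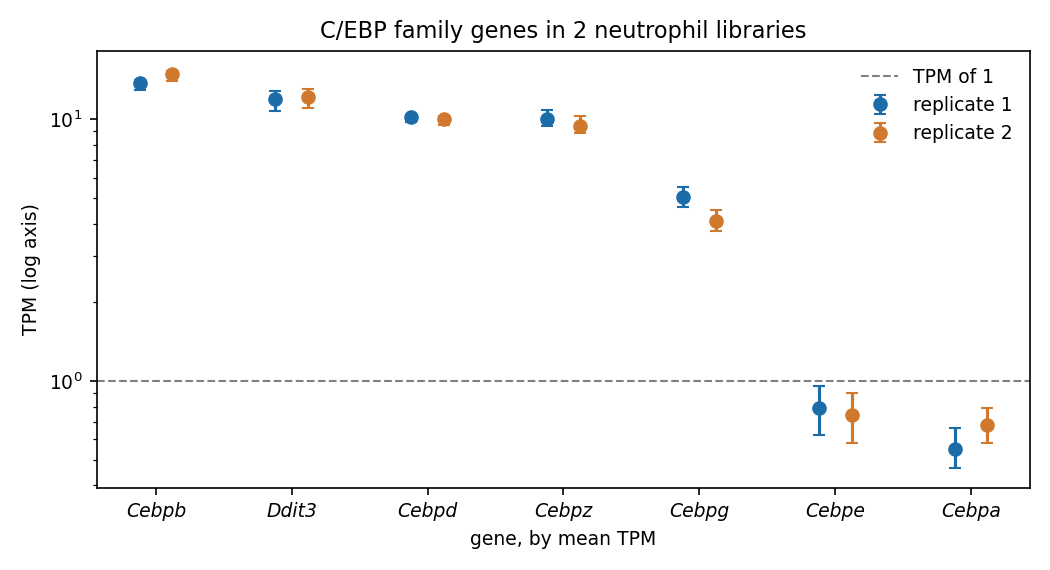
TPM of each gene in replicate 1 (blue) and replicate 2 (orange) on a log axis, with the interval bounds that the deposited gene table gives for each TPM. Cebpb, Ddit3, Cebpd, Cebpz and Cebpg lie above the dashed line at a TPM of 1, and Cebpe and Cebpa lie below it in both libraries.

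In order of mean TPM, Cebpb (14.4 ± 0.799) was followed by Ddit3 (12.1 ± 0.184), Cebpd (10.1 ± 0.120), Cebpz (9.75 ± 0.445), Cebpg (4.57 ± 0.679), Cebpe (0.765 ± 0.0354) and Cebpa (0.615 ± 0.0919). Cebpd and Cebpz did not differ beyond their spread, since the ranges of their 2 libraries overlap. The other neighbours had ranges that do not overlap. The closest of these, Cebpe over Cebpa, differed by 0.13 ± 0.11 on the log2(TPM + 1) scale, and the interval bounds given for their TPM overlap in each library. Among protein-coding genes, 94.95% had a lower mean TPM than Cebpb and 59.6% a lower mean than Cebpa. The median protein-coding gene was at 0.13 TPM in replicate 1 and 0.11 in replicate 2.

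Each of these levels is that of a whole library, and fewer cells of a type cannot be told apart from less RNA per cell. All 15 neutrophil markers were detected, with summed TPM of 2659 and 2681 in replicates 1 and 2. B-cell markers were detected in 12 of 12 cases, at 755 and 678. Monocyte markers were detected in 8 of 12 cases, at 52.9 and 49.5, T-cell markers in 10 of 12, at 36.8 and 35.7, and eosinophil markers in 2 of 8, at 5.61 and 6.37. Of the 8 basophil and mast cell markers none was detected, at 1.31 and 0.98, and Mcpt4 had no count. Of the red-cell markers 5 of 9 were detected, at 4329 and 4264, most of it globin. Precursor markers were detected in 0 of 10 cases, at 2.98 and 2.69, yet only Hoxa9 had no count in either library. Myb was the highest of them, at 0.93 and 0.86 TPM from 264 and 234 expected counts. It lay above Cebpe and Cebpa in both libraries, so precursor RNA was present at about the level of the early factors. The part of B cells and of the other cell types in the C/EBP levels was not tested.

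The genes lie on 6 chromosomes of GRCm38, the assembly that mm10 names. Cebpa (ENSMUSG00000034957.10, chr7:35119293-35121928, plus strand) and Cebpg (ENSMUSG00000056216.9, chr7:35046422-35056573, minus strand) are neighbours on chromosome 7. Cebpb (ENSMUSG00000056501.3) lies at chr2:167688915-167690418 and Cebpd (ENSMUSG00000071637.5) at chr16:15887286-15891031, both on the plus strand. Cebpe (ENSMUSG00000052435.7) lies at chr14:54710360-54712174 and Cebpz (ENSMUSG00000024081.9) at chr17:78919006-78937066, both on the minus strand. Ddit3 (ENSMUSG00000025408.15) lies at chr10:127290774-127296288 on the plus strand. The main transcripts of Cebpa, Cebpb and Cebpd have 1 exon, so spliced and unspliced RNA of these genes cannot be told apart. Cebpe has 2 exons and Cebpz 16.

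Promoter sequence is shown for an early and a late factor, since their levels differ most. RefSeq on GRCm38.p6 gave a window of 250 bases before to 50 after the start for 4 of the 7 genes, namely Cebpa, Cebpb, Cebpg and Ddit3. Capitals mark matches on either strand to CCAAT (the CCAAT box), TTGCG (a C/EBP half-site), TGACG (a cyclic AMP element half-site), TATAAA (the TATA box) or GGGCGG (the GC box). The windows are chr7:35119043-35119342 for Cebpa and chr2:167688665-167688964 for Cebpb, both on the plus strand.
Cebpa: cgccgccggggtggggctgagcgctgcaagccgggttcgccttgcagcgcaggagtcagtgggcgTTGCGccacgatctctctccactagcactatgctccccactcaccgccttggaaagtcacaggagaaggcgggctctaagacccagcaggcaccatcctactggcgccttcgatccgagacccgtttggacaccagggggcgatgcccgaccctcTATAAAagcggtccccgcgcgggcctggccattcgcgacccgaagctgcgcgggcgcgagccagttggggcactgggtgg
Cebpb: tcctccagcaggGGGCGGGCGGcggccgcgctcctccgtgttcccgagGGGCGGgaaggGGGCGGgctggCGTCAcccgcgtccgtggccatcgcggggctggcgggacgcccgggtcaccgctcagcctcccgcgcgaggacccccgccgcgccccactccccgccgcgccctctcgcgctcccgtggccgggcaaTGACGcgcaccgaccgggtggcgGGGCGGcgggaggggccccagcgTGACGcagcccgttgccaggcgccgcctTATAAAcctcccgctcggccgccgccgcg

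The Cebpa window held 1 TTGCG and 1 TATAAA. The Cebpb window held 3 TGACG, 5 GGGCGG of which a pair overlap each other, and 1 TATAAA. With the annotated first base as position 0, TATAAA began at -30 in Cebpa and at 21 in Cebpb. The Cebpg window held 2 CCAAT and 1 GGGCGG, and the Ddit3 window held 1 CCAAT. Of 32851 promoter windows of this length, 37.4% held CCAAT, 17.4% TTGCG, 20.8% TGACG, 13.6% TATAAA and 35.7% GGGCGG. The GC content was 67.3% for Cebpa and 80.7% for Cebpb, against a median of 52.7% over all windows. A match describes letters only.

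The transcripts of Cebpb, Cebpa and Cebpe are rich in G and C. Cebpb-201 had 67.2% GC, Cebpa-201 62.6% and Cebpe-201 61.5%, and 99.6%, 97.6% and 96.3% of 58797 coding transcripts had less. Cebpd-201 was near the median of 50.4%, at 51.6%. The part of GC content in the counts was not tested.

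Cebpb, which encodes the factor also known as NF-IL6, has a single transcript of 1504 nt in the annotation. Exons of Tmem189 on the opposite strand overlap 312 nt of it, or 20.7%. Tmem189 was at 7.75 and 6.19 TPM. The strand setting behind the tables is not given in the sources used here. Whether reads of genes that overlap on opposite strands were told apart is thus not known. In the main table Tmem189 had 1045 and 969 expected counts, whole numbers like those of Cebpb, and the handling of shared reads was not tested. Counts of Cebpb were 1804 and 1973 in both gene tables, and 2301 and 2487 in the alignment-free table.

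The level of Cebpd, an acute-phase factor, depended on the gene model. The main table uses a 3746 nt transcript, and the older GENCODE M4 table a model of 1180 nt. Its counts were 3568 and 3397 on the long model and 2611 and 2508 on the short one. The short model thus held 73.2% and 73.8% of the counts on an effective length of 1015 and 1021 nt, against 3581 and 3450 nt for the long one. Its TPM was 26.6 and 25.3 with M4, above Cebpb at 14.0 and 15.1 in that table. RefSeq ends the gene at chr16:15887286-15889545, a span of 2260 nt. Exons of Spidr, a DNA repair gene on the opposite strand at 4.34 and 4.03 TPM, share 562 nt with the long model. A non-coding model, Cebpd-202, took 0% and 4.14% of the gene's TPM.

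**Figure D2:**
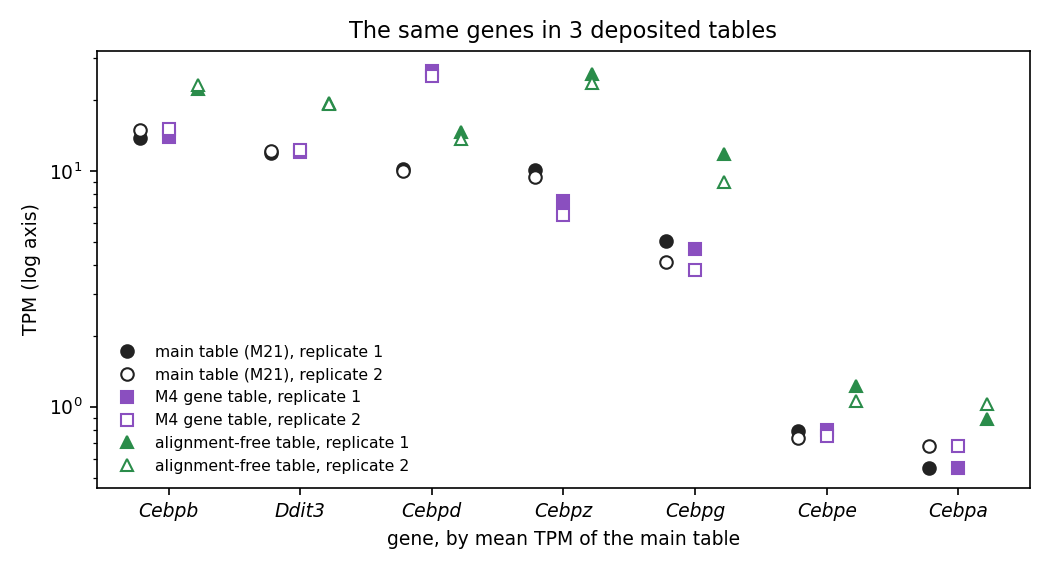
TPM on a log axis in the main table (black circles), the M4 gene table (purple squares) and the alignment-free table (green triangles), filled for replicate 1 and open for replicate 2. Cebpd is highest in the M4 table and Cebpz in the alignment-free table, while Cebpe and Cebpa are lowest in all 3.

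Cebpa, the factor of early commitment, was carried almost wholly by its intronless transcript. Cebpa-201 took 96.6% and 100% of the gene's TPM and 100% in the alignment-free table. The spliced Cebpa-202, whose coding part is 159 codons against 359, had 3.62 expected counts in replicate 1 and 0 in replicate 2. The leader of Cebpa-201 holds 1 upstream ATG, at base 92 of its 116 nt, which opens a frame of 5 codons that stops before the main start. An upstream frame of this kind is known to control which C/EBP alpha protein is made, and mRNA levels do not show that. The antisense model Gm45091 overlaps 51 nt of Cebpa exons and had no count.

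Cebpe, the factor of specific granule formation, has 1 transcript of 1241 nt and 281 codons in the annotation. Its counts of 83 and 79 were the fewest of the 7 genes in each library. Its TPM of 0.79 and 0.74 lay within interval bounds of 0.624 to 0.956 and 0.580 to 0.903. In the alignment-free table it was at 1.22 and 1.06 TPM, above the detection threshold, and Cebpa at 0.888 and 1.03.

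Cebpg was at 5.05 TPM in replicate 1 and 4.09 in replicate 2, from 1570 and 1469 counts. The TPM ratio of replicate 2 to 1 was 0.810, while the CPM ratio was 0.987 with an exact 95% interval of 0.918 to 1.06. The effective length rose from 3182 to 3653 nt between the libraries with the shares of its transcripts. The long Cebpg-202 (4709 nt) took 63.2% and 76.8%, and the short Cebpg-201 (914 nt) 23.3% and 9.97%. Both encode the same 150 codons. In the alignment-free table the shares were 34.4% and 41.8% for Cebpg-202 and 33.8% and 35.4% for Cebpg-201. The split of Cebpg between these transcripts is uncertain, and so is the TPM that rests on it.

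Cebpz was at 10.1 and 9.43 TPM, from 2867 and 2544 counts. Its full-length coding transcript, Cebpz-201 with 1052 codons, took 53.0% and 49.0% of that. Cebpz-204, annotated as a target of nonsense-mediated decay, took 28.8% and 27.4%, and the retained-intron model Cebpz-205 16.9% and 14.0%. The 4 models that are not annotated as protein-coding, Cebpz-204 among them, together held 49.0 ± 2.86% of the gene's TPM in the main table and 82.8 ± 1.86% in the alignment-free one. These shares are per length, so short models weigh more in them than in counts. In expected counts of the main table, Cebpz-201 held 2036 and 1776, Cebpz-204 779 and 702, and Cebpz-205, of 454 nt, only 48 and 38.4. Cebpz-204 does carry an annotated coding part, of 461 codons. The tables also disagreed on Cebpz-202, a 530 nt non-coding model with 0 counts in both libraries of the main table and 218 and 235 in the alignment-free table, or 29.8% and 33.5% of the gene. The gene's TPM there was 25.9 and 23.5. On the opposite strand Cebpzos shares 171 nt of its exons with Cebpz and stood at 3.41 and 2.91 TPM.

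**Figure D3:**
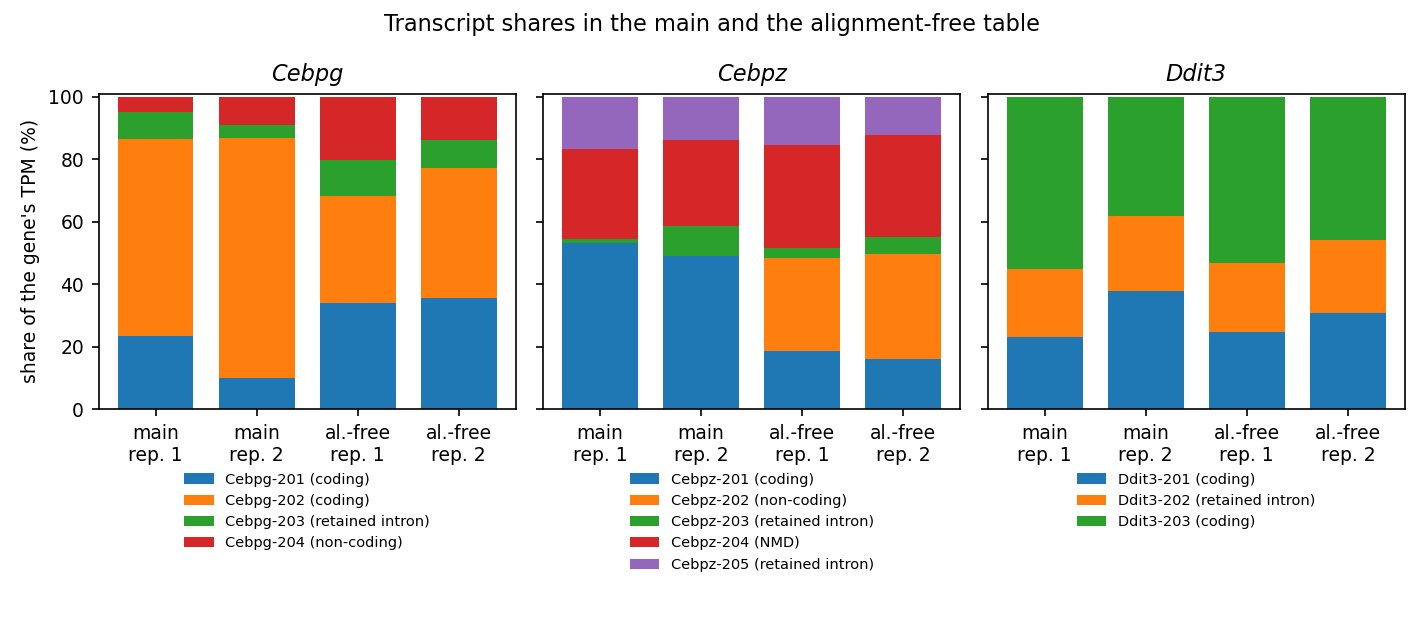
Share of each gene's TPM taken by each annotated transcript, for the main table and the alignment-free table in both libraries. Cebpz-202 takes 0% in the main table and 29.8% and 33.5% in the other, while Ddit3-203 takes 55.3% and 38.3% in the main table and 53.2% and 46.0% in the other.

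Ddit3 was at 11.9 and 12.2 TPM, from 678 and 766 expected counts, and 93.7% of protein-coding genes had a lower mean. Ddit3-203 took 55.3% and 38.3%, Ddit3-201 23.0% and 37.7% and the retained-intron model Ddit3-202 21.7% and 23.9%. The retained-intron share was 22.8 ± 1.61% in the main and 22.5 ± 0.746% in the alignment-free table. The 2 coding models took nearly equal shares in replicate 2 and unequal ones in replicate 1. The coding part of Ddit3-203, 481 nt against 504 nt in Ddit3-201, runs to the last base of the model. Ddit3-203 is thus incomplete at that end and holds no annotated stop codon. Exons of Mars, which lies on the opposite strand, share 68 nt with Ddit3, and Mars was at 5.44 and 4.64 TPM.

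The Ddit3 leader is known for an upstream frame that holds back translation until stress relieves it. In Ddit3-201 the leader of 186 nt holds 2 upstream ATG, which open frames of 34 and 31 codons that both stop before the main start. Ddit3-203 lacks the 48 nt exon in which these frames end. In that model the same 2 ATG open frames of 87 and 84 codons that run past the main start in another reading frame. Of 50507 coding transcripts with a leader, 58.2% hold an upstream ATG. No translation was measured here.

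The 34-codon frame is also annotated as a gene of its own under the same symbol, ENSMUSG00000116429.1 at chr10:127290829-127293753. It had 0.23 and 2.31 expected counts, yet 1.36 and 11.3 TPM, on an effective length of 1.75 and 2.09 nt. The interval bounds of that TPM ran from near 0 to 28.2 and 35.6. Summed by symbol, it would add 11.3 TPM to the 12.2 of Ddit3 in replicate 2, so only the entry with the full coding sequence was used.

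**Figure D4:**
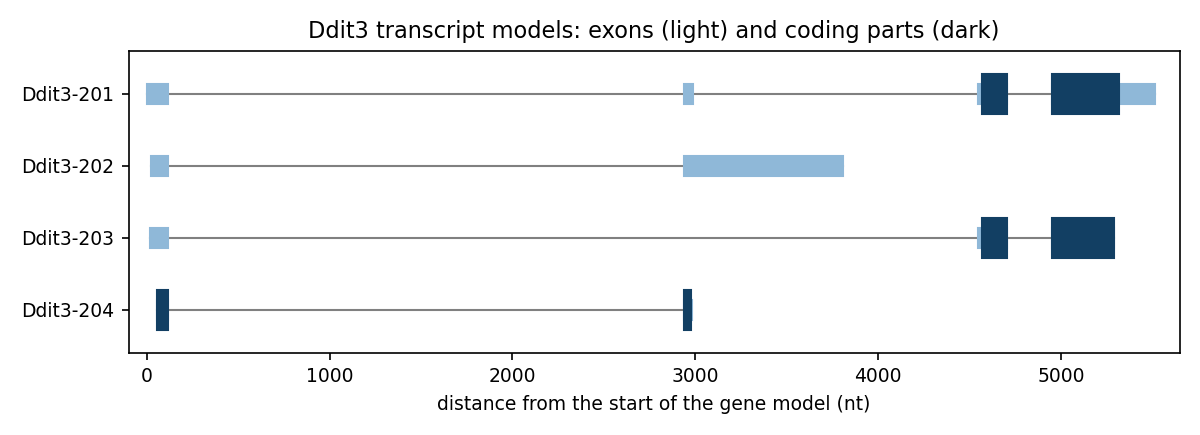
Exons (light) and coding parts (dark) of the Ddit3 models to scale, by distance from the start of the gene in nt. The separate entry of 34 codons ends within the 48 nt exon that Ddit3-201 holds and Ddit3-203 lacks.

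Between the libraries, 0 of the 5 genes that passed the filter reached a 2-fold difference in TPM + 1. The filter asked for a TPM of at least 1 in either library and at least 50 expected counts in either, and 0.924% of 9095 genes that passed it reached 2-fold in either direction. Cebpa and Cebpe did not pass it. The CPM ratio of replicate 2 to replicate 1 was 1.15 for Cebpb (exact conditional 95% interval 1.08 to 1.23), 1.19 for Ddit3 (1.07 to 1.32) and 1.31 for Cebpa (1.04 to 1.66). It was below 1 for Cebpz, at 0.936 (0.887 to 0.988). The intervals of Cebpd, Cebpe and Cebpg included 1. These intervals compare 2 libraries and not conditions.

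Most genes listed for early granules were low, with exceptions. Of 8 measured genes 2 were detected, or 25%, beside 35.0% of all annotated protein-coding genes, so this count alone does not set the list apart. The same 35.0% is the background for the other lists. The median was 0.0375 ± 0.0035 TPM, against 0.13 and 0.11 over protein-coding genes in replicates 1 and 2. Srgn, which packs granule contents in many leukocytes, was at 173 and 167 TPM, and the protease Ctsc at 12.4 ± 0.785. Prss57 was at 0.10 and 0.09, Mpo at 0.04 and 0.08, and Elane, Ctsg and Ms4a3 had no count. Of 12 genes listed with the later granules 8 were detected, and the median was 2.11 ± 0.244 TPM. Mmp9 was at 53.5 and 49.7, Mmp8 at 22.9 and 20.3, Lcn2 at 21.2 and 20.6 and Cd177 at 3.50 and 4.10. Camp was at 0.45 and 0.29 and Olfm4 at 0.61 and 0.42, among the 4 genes below a TPM of 1 in both libraries. Ltf, at 2.86 and 1.58, and Ngp, at 2.20 and 1.46, were among the 8 detected. Of the genes on this list, Mmp9, Mmp8, Lcn2, Cd177 and the surface antigen gene Ly6g also stand among the neutrophil markers above.

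Inflammatory genes known to be served by C/EBP beta or delta were uneven. Of 16 genes 11 were detected, and the median was 4.59 ± 0.127 TPM. Il1b, which encodes interleukin-1 beta, was at 659 and 579, haptoglobin (Hp) at 75.1 and 78.8, the decoy receptor Il1r2 at 46.55 and 50.03, and the receptor antagonist Il1rn at 16.2 and 15.3. Il6 was at 0.09 TPM in both libraries, and Csf3, Cxcl1 and Nos2 had no count. The list thus ran from no count to a mean of 619 TPM.

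Among genes of the integrated stress response, the pathway that raises CHOP through ATF4, 14 of 22 were detected, and the median was 3.17 ± 0.127 TPM. Atf4 was at 31.6 and 31.4, Ppp1r15a, a phosphatase subunit that ends the response, at 24.7 and 29.6, the kinase Eif2ak3 at 14.4 and 15.1, and Atf3 at 15.5 and 9.76. Of the 8 genes that were not detected, Asns was at 0.41 and 0.56, Trib3 at 0.18 and 0.03 and Atf5 at 0.11 and 0.15. Vldlr was lowest, at 0.04 and 0. All 16 genes of the unfolded protein response were detected, and the median was 8.69 ± 0.0247. Calr was at 64.6 and 56.2, Hspa5, the main chaperone of the endoplasmic reticulum, at 51.9 and 50.3, and the sensor Ern1 lowest at 1.60 and 1.92.

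Regulators of C/EBP proteins and the receptors upstream of them were all detected, 21 of 21, and the median was 6.29 ± 0.643 TPM. The receptor Csf3r was at 273 and 235, Calr at 64.6 and 56.2, and Stat3, which acts between that receptor and Cebpb, at 32.9 and 36.1. Il6st, a receptor chain for interleukin-6, was lowest at 1.80 and 1.65. Around Cebpz, 19 of 20 genes of ribosome assembly were detected, and the median was 4.17 ± 0.576. Npm1 was at 52.7 and 48.6, Rrp1 at 24.19 and 21.04, Ncl at 21.2 and 19.2, Nop56 at 18.1 and 13.9 and Noc4l lowest at 1.03 and 0.90.

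**Figure D5:**
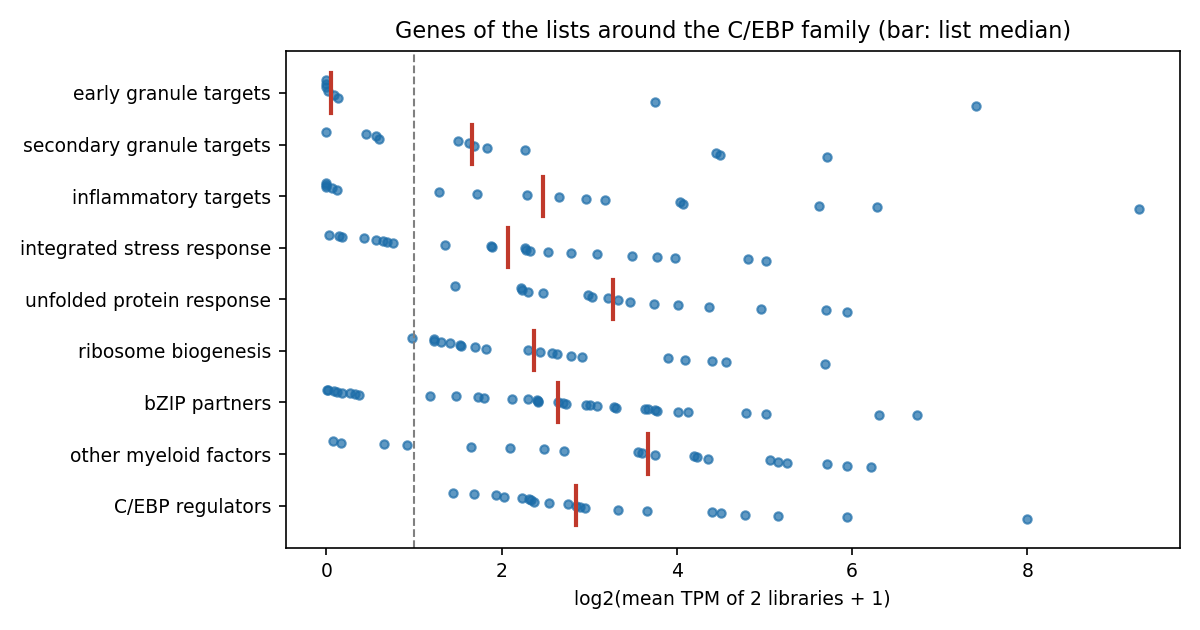
Mean TPM of each gene on a log2(TPM + 1) scale, by list, with the list median as a red bar and a TPM of 1 as a dashed line. Early granule genes gather near 0 apart from Srgn and Ctsc, and all 16 genes of the unfolded protein response lie right of the dashed line.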

How the data were processed

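Gene and transcript tables of 2 total RNA libraries were used. Per the labels, 100 ng of RNA went into each library, and the stated size range is 200 to 1000. The authors deposited expected counts and TPM per gene on GENCODE M21 (main) and M4, both on mm10, per the file headers and deposited file lists. Transcript shares are the percent of a gene's TPM, per the file headers. The deposited alignment-free transcript table lists reads and no alignment as parents. Interval bounds of TPM are the authors'. The sources used here give no program, version or strand setting for these tables.

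Symbols came from the alignment-free table, joined by gene identifier. Where 2 entries share a symbol, that with more counts was used. CPM, log2(TPM + 1) with a pseudocount of 1, means, SDs and exact conditional binomial intervals (counts rounded) were computed in Python 3.11.15 with pandas 2.3.3 and scipy 1.17.1. The 2-fold rule was tested on simulated data that held counting error only, with effective lengths fixed. That test does not cover the shifts in effective length seen between the libraries. TMM factors (edgeR 4.0.16) and size factors (DESeq2 1.42.0) served as alternatives.

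Members and gene lists were chosen with earlier results of these data known. In each list the named genes are the 4 highest, the lowest and up to 3 below a TPM of 1, and for each detected member the factor nearest in level. Ctsg was named after its value was seen, and not every gene that meets the rule is printed; 1 gene is not reported here. Azu1 and Ahsp had no match among the symbols used.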

Additional observations from a re-analysis of the deposited data

How the results depend on the processing

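The late factors exceeded the early ones in every setting run. On the log2 scale the difference of 2.95 was 3.59 with the M4 gene table, 3.21 with the alignment-free table, 3.98 with TPM rescaled to nuclear protein-coding genes, 2.93 with posterior mean TPM, 3.95 with a pseudocount of 0.1 and 4.29 with CPM. With 1 library left out it ranged from 2.95 to 2.95, and with 2 libraries such a change is always within 1 SD. Of the 7 places in the order of levels, 4 were kept with the M4 table, 3 with the alignment-free table and 0 with CPM, which does not divide by length. Both other TPM scales kept all 7. The levels themselves depend on the scale. With TPM rescaled to nuclear protein-coding genes, Cebpa was at 7.19 ± 1.35 and Cebpe at 8.92 ± 0.0720. On that scale Cebpb was at 168 ± 15.7 and Cebpd at 118 ± 3.09. The number detected ran from 4 (TPM of at least 5) to 7 (TPM of at least 0.1, rescaled TPM, or at least 10 expected counts), and was 6 with the alignment-free table. No gene reached 2-fold between the libraries under any of the 6 alternatives, which include TMM and DESeq2 factors. The share of Cebpg-202 fell from 70.0% to 38.1% and that of Cebpz-201 from 51.0% to 17.2% with the alignment-free table, and the cause was not tested. The shares of Cebpa-201, Cebpd-201 and Ddit3-203 moved by less than their SD. Adding the short second entry, an alternative chosen after seeing the data, put Ddit3 at 18.4 ± 7.18 TPM. List medians in the other 2 tables, also chosen afterwards, moved beyond their SD in 28 of 40 cases. No paired analysis was possible because both libraries belong to 1 group. Counts under 100 for Cebpe limit how finely its level is known.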

Other observations

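Among 35 other bZIP genes, 27 were detected, and the median was 5.23 ± 0.424 TPM (n = 2). The AP-1 genes Fos and Junb were highest, at 106 ± 2.60 and 78.5 ± 5.66, ahead of Atf4 (31.5 ± 0.113) and Jund (26.6 ± 0.834). Of these 35 genes 6 stood above Cebpb, 8 above Ddit3, 10 above Cebpd and 27 above Cebpe and Cebpa. Fosl1 was lowest, with 2 counts in replicate 1 and 0 in replicate 2, and Batf2, Batf3 and Atf5 were below a TPM of 1. Other factors of the myeloid line reached detection in 16 of 20 cases, and the median was 11.9 ± 0.0424. Mxd1 (73.3 ± 6.13), Ets1 (60.4 ± 4.96), Klf6 (51.6 ± 2.99) and Klf2 (37.2 ± 0.594) led. Gfi1, a repressor needed for granulocyte development, was at 0.12 ± 0.0566 and its paralog Gfi1b lowest at 0.055 ± 0.0354.

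Since 1 group of 2 libraries gives no pattern across conditions, likeness was measured by level alone, as the distance in log2(TPM + 1) over the 2 libraries among 55 factors. Nearest to Cebpb was Xbp1 (15.2 ± 0.339 TPM, distance 0.15), and nearest to Cebpd was Rara (11.1 ± 0.170, distance 0.18). Lmo4 was nearest to Cebpg (4.59 ± 0.544, distance 0.04), Jun to Cebpz (8.88 ± 0.361, distance 0.17) and Nfe2l2 to Ddit3 (11.7 ± 0.240, distance 0.07).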
